A study of Mastomys natalensis with 4 samples.

Results

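The fibrillar and type VI collagens are described here by 8 genes, Col1a1, Col1a2, Col3a1, Col5a1, Col5a2, Col6a1, Col6a2 and Col6a3, in the gastric mucosa of the rodent Mastomys natalensis. These members were chosen with earlier results of these data known. Their probe sets were taken by name: every probe set of the mouse U74 array (Affymetrix) whose annotation gave a single gene symbol equal to a member was taken. This gave 14 of the 12488 probe sets and all 8 genes, of 8251 genes named in the same way. No member probe set was lost because it carried several symbols. Of the 14 probe sets 11 lay above a floor intensity of 12.15 on at least 2 of the 4 arrays and were tested, covering all 8 genes. The other 3 lay under the floor on all 4 arrays and gave no measurement.

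The 4 samples were total RNA of gastric mucosa from animals given loxtidine, which the labels spell loxitidine and which blocks histamine H2 receptors. The group of 2 samples after 8 weeks is labelled as hyperplasia of enterochromaffin-like (ECL) cells, the histamine-storing endocrine cells of the acid-secreting stomach. The group of 2 samples after 16 weeks is labelled as neoplasia of the same cells. Treatment is common to all 4 samples, and strain, sex and age are not given in the sources used here, so treatment time, lesion stage and any difference in age cannot be told apart. The labels do not say whether samples came from separate or pooled animals, so the p-values rest only on how far these samples differ, and that spread could be technical. Each sample's label also names a lot batch of its own, which cannot be told apart from the sample.

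Collagens are triple-helical proteins that give connective tissue its strength. Types I and III form the bulk fibrils of the lamina propria and submucosa, type V is built into the core of type I fibrils and controls their diameter, and type VI forms beaded microfilaments beside cells and basement membranes. Fibroblasts make most of them, and smooth muscle cells of the muscularis mucosae and vessel walls contribute. In bulk tissue, fewer cells of a type and less RNA per cell cannot be told apart.

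Array medians lay between 15.4 and 19.2, and 55.3% to 62.4% of probe sets other than controls lay above the floor on each array. The acid-secreting mucosa was represented: its proton pump subunit Atp4a read 4034 to 5304 and its intrinsic factor gene Cblif read 1147 to 1715, and all 7 of its listed markers on the array were tested. Hybridisation controls read transcripts usually added to the samples in equal amounts. The 9 of these probe sets with names ending in _at, here called sense-strand controls, were all lower at 16 weeks on the deposited scale. Their median log2 difference was -0.57. The wider set of 14 hybridisation controls used below also held probe sets with other endings. Bright probe sets in general also lay lower: the median difference was -0.13 in the brightest 25% of tested probe sets and 0.19 in the dimmest 25%. The ratio of the 3' to the 5' beta-actin control was 1.26 and 1.16 at 8 weeks, compared with 1.46 and 1.63 at 16 weeks, while the Gapdh ratio was 0.714 and 0.589 against 0.891 and 0.647 and overlapped. The part of RNA quality, brightness and array scale in the values below was not tested, except where values on other scales are given.

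The comparison of 16 with 8 weeks asked how these transcripts differed between the hyperplastic and the neoplastic stage. On each gene's brightest probe set Col3a1 read 2.89-fold and Col5a2 2.25-fold lower at 16 weeks. Col1a1 read 1.40-fold and Col6a3 1.31-fold lower, and Col5a1, Col6a1 and Col6a2 differed by at most 1.09-fold. Both type I genes depended on the probe set: Col1a1 read 2.80-fold lower on its dimmer probe set, and Col1a2 read 3.64-fold lower on its dimmer but 1.44-fold higher on its brighter one. No member passed the test over all probe sets: limma, with Benjamini-Hochberg adjustment over 7883 tested probe sets, called 0 (0%) in either direction, and 1100 had an unadjusted p under 0.05. Unless stated, differences are log2 values, 16 weeks minus 8 weeks, and the error is limma's SE (n = 2 per group). This SE draws in part on the spread pooled over all tested probe sets, so it is not the spread of each probe set alone.

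Because the members were chosen with earlier results of these data known, the shares below are a description and no test over the list was made. Of the 11 tested member probe sets 10 were lower and 1 was higher at 16 weeks, where 43.7% of all tested probe sets were lower. The number of lower members was 8 after quantile normalization, 10 on a common median, 6 with the arrays aligned on the hybridisation controls and 5 on the sense-strand controls alone. In 6 of the 11 both 16-week samples lay below both 8-week samples, against 20.6% of all tested probe sets. In 1 (Col1a2 on 161156_r_at) both 16-week samples lay above, against 28.7%, and in 4 the groups overlapped. An unadjusted limma p under 0.05 with a lower level at 16 weeks was found for 4 of the 11 (Col3a1, Col5a2, Col1a2 on 101130_at and Col1a1 on 94305_at) against 5.87% of all tested probe sets, and none had such a p with a higher level, against 8.08%. This count of 4 rested on the samples and the scale: it was smaller with any sample left out, which leaves a single sample in that group. It was 4 after quantile normalization and 5 on a common median. With the arrays aligned on either set of hybridisation controls it was 3, and 1 member was then higher with such a p. In either direction 1100 of 7883 probe sets had such a p on the deposited scale. This was 1080 of 7926 after quantile normalization and 1328 of 7934 on a common median. It was 1958 of 8090 on the hybridisation controls and 2514 of 8022 on the sense-strand controls alone. Most of the collagen probe sets were bright, 9 of the 11 lying in the brightest 25% of tested probe sets, where lower values at 16 weeks were more common. Of these 9, 8 were lower, against 60.4% of that brightest 25%, in 5 both 16-week samples lay below both 8-week samples, against 35.7%, and 3 had an unadjusted p under 0.05 and were lower, against 8.98%. The 11 probe sets count Col1a1, Col1a2 and Col5a1 more than once. With each gene on its brightest tested probe set 7 of the 8 genes were lower, against 44.7% of all genes. Of the 8 genes 2, Col3a1 and Col5a2, were lower with an unadjusted p under 0.05, against 341 of 5864 genes. In 4 of the 8 both 16-week samples lay below both 8-week samples, against 1240 of 5864. The median difference was -0.48 over the 11 probe sets and -0.25 over the 8 genes, each represented by its brightest tested probe set. The same medians over all tested probe sets and all genes were 0.09 and 0.07. Of the 11 probe sets 10 were above the floor on all 4 arrays, and Col5a1 on 101080_at was so on 3.

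**Figure D1:**
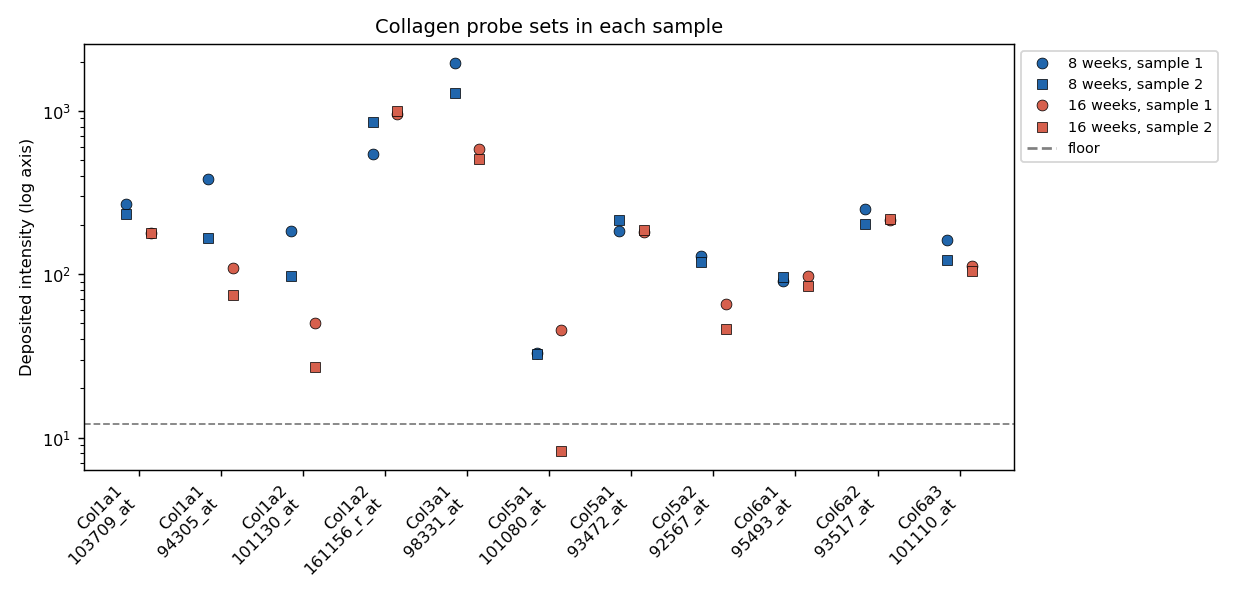
Deposited intensity (log axis) of the 11 tested collagen probe sets in each of the 4 samples, with the 8-week samples in blue, the 16-week samples in red and the floor of 12.15 as a dashed line. The 16-week points of Col3a1, Col5a2, Col1a1 and Col1a2 (101130_at) sit below both 8-week points, the points of Col1a2 (161156_r_at) sit above, and those of Col6a1 and Col6a2 overlap.

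Col3a1 encodes the only chain of type III collagen, the fibre of loose and distensible connective tissue. Its probe set 98331_at read 1949 and 1280 in the 8-week samples, against 586 and 509 in the 16-week samples. Both 16-week samples lay below both 8-week samples by more than the samples of either group differed from each other. The difference was -1.53 ± 0.30, a 2.89-fold lower level (95% interval -2.31 to -0.75; limma adjusted p = 0.301). It ranked 98 of 7883 by p, and 0.71% of tested probe sets had a lower difference. The 2 other Col3a1 probe sets, 102990_at and 161984_f_at, read between 0.6 and 6.8 on all arrays, and a dim mouse probe set on Mastomys RNA does not show that a transcript was absent.

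Type I collagen, the main tensile fibre, is assembled from the products of Col1a1 and Col1a2, and each gene had a pair of tested probe sets. Col1a1 on 94305_at read 381 and 166 at 8 weeks, compared with 109 and 74.4 at 16 weeks, a difference of -1.48 ± 0.47 (limma adjusted p = 0.331). Col1a1 on 103709_at read 268 and 232 against 178 and 178, a difference of -0.49 ± 0.24 (limma adjusted p = 0.410). Neither pair of groups overlapped, but the 8-week samples differed 1.20 log2 units from each other on the first probe set and 0.20 on the second. Without 8-week sample 1 the differences were -0.89 and -0.39. On the sense-strand controls the second probe set turned to 0.041.

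Col1a2 gave opposite signs on its probe sets. On 101130_at it read 185 and 96.8 at 8 weeks, compared with 50 and 27 at 16 weeks, a difference of -1.86 ± 0.46 (3.64-fold; limma adjusted p = 0.309). This was the 24th lowest difference of all 7883 tested probe sets. On 161156_r_at it read 540 and 852 at 8 weeks, compared with 950 and 1001 at 16 weeks, a difference of 0.52 ± 0.31 (limma adjusted p = 0.476) that was 0.19 without 8-week sample 1. The suffix _r marks a probe set for which Affymetrix relaxed its rules for choosing probes. The ratio of 101130_at to 161156_r_at within an array differed by -2.39 on the log2 scale and did not overlap between the groups (exact 2-sided permutation p = 0.333, the smallest that 2 against 2 samples can give). The ratio also differed between the 8-week samples, at -1.55 in sample 1 and -3.14 in sample 2. The brightest-probe-set rule took 161156_r_at to stand for Col1a2, so this gene enters the median of the 8 genes as the 1 that was higher. Leaving out _f and _r probe sets, a choice made once the data had been seen, gave a median of -0.44.

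The type V chains, which nucleate type I fibrils, gave unlike values. Col5a2 on 92567_at read 129 and 119 at 8 weeks, compared with 66 and 46 at 16 weeks. The groups lay apart by more than either spread, and the difference was -1.17 ± 0.28 (2.25-fold; limma adjusted p = 0.309). Col5a1 on its brighter probe set 93472_at read 184 and 215 against 180 and 185, so the groups overlapped (-0.12 ± 0.24; 95% interval -0.73 to 0.50). Its dimmer probe set 101080_at read 32.9 and 32.6 against 45.6 and 8.3, with 16-week sample 2 under the floor, a difference of -0.48 ± 0.64 that became 0.48 without that sample. The 16-week samples thus lay on opposite sides of the 8-week samples on this probe set.

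Type VI collagen is a heterotrimer of the products of Col6a1, Col6a2 and Col6a3. Col6a1 on 95493_at read 90.7 and 96.1 at 8 weeks, compared with 96.8 and 84.1 at 16 weeks, a difference of -0.05 ± 0.24 (95% interval -0.66 to 0.56; limma adjusted p = 0.931). Col6a2 on 93517_at read 250 and 204 against 215 and 217 (-0.06 ± 0.25; 95% interval -0.70 to 0.57; limma adjusted p = 0.909). Both genes overlapped between the groups, although their intervals are wide and a change in either direction within them was not detectable with 4 arrays. Col6a3, the largest chain, read 162 and 122 against 112 and 104 on 101110_at, lower in both 16-week samples (-0.39 ± 0.26; limma adjusted p = 0.525). The second Col6a1 probe set, 162459_f_at, read 1.2 to 5.1 and was not tested.

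**Figure D2:**
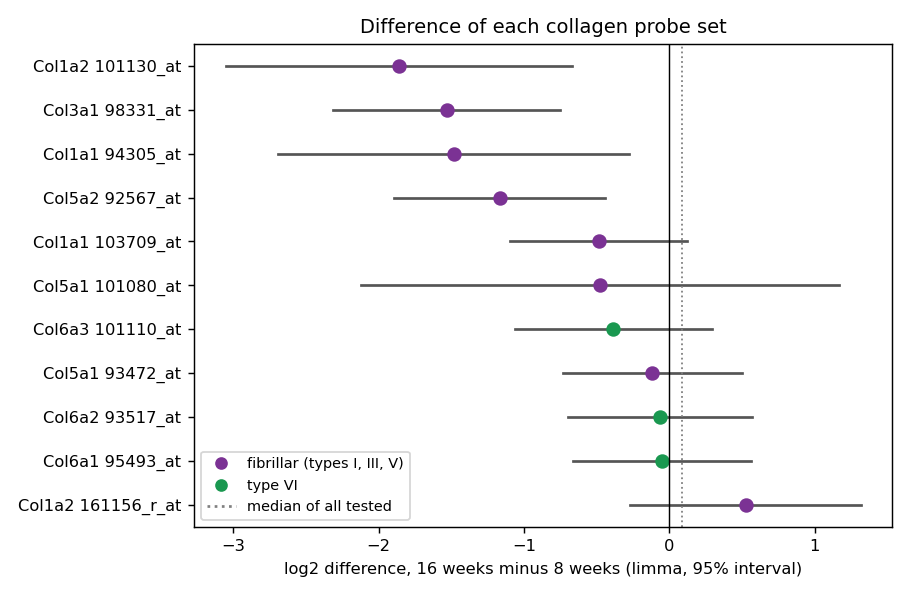
log2 difference of each tested collagen probe set, 16 weeks minus 8 weeks, as points with limma's 95% intervals, fibrillar chains in purple and type VI in green, with the median of all tested probe sets (0.09) as a dotted line. The intervals of Col1a2 (101130_at), Col3a1, Col1a1 (94305_at) and Col5a2 lie below 0, and the other 7 include 0.

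The members differed within the groups as well. In 8-week sample 1 over sample 2 the log2 ratio was 1.20 for Col1a1 (94305_at), 0.93 for Col1a2 (101130_at), 0.61 for Col3a1, 0.41 for Col6a3 and 0.11 for Col5a2, against a median of -0.14 over all tested probe sets. In 16-week sample 1 over sample 2 the same 5 probe sets gave 0.55, 0.89, 0.20, 0.10 and 0.52, against 0.05. Type I collagen on these probe sets thus varied among samples of the same stage. The differences between the stage means were -1.48 for Col1a1 and -1.86 for Col1a2. Without 8-week sample 1, the highest sample, Col1a1 (94305_at) was -0.89, smaller in size than the 1.20 between the 8-week samples. Col3a1 stayed at -1.23, Col1a2 (101130_at) at -1.40 and Col5a2 at -1.12 without that sample.

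Ratios of members within an array do not depend on a single scaling factor for that array, but quantile normalization can change them. On the log2 scale Col3a1 over Col6a1 was 4.43 and 3.74 in the 8-week samples against 2.60 and 2.60 later, a difference of -1.48 that was -1.16 after quantile normalization. Col5a2 over Col5a1 was -0.51 and -0.85 against -1.45 and -2.01, a difference of -1.05 or 2.07-fold. Col6a2 over Col6a1 differed by -0.02 (exact permutation p = 1; 0.14 after quantile normalization) and overlapped, and Col6a3 over Col6a1 differed by -0.34 without overlap. Col3a1 over Col1a1 differed by -1.05 with the Col1a1 probe set 103709_at, but by -0.05, with overlapping groups, with 94305_at. Col1a2 over Col1a1 differed by 1.01 on the brighter probe sets and by -0.38 on the other pair, again without overlap. The exact 2-sided permutation p was 0.333 for each ratio whose groups did not overlap, which is the smallest possible here, so none of these differences can pass a threshold of 0.05. Of 6 planned ratios on the brightest probe sets 5 did not overlap. Of single tested probe sets 49.3% did not overlap in either direction, but no such share was computed for ratios. The planned ratios also share members, so they are not independent. Among the 5 without overlap, Col1a2 over Col1a1 reversed and Col3a1 over Col1a1 overlapped on the other type I probe sets. Col6a3 over Col6a1 was 0.84 and 0.34 at 8 weeks against 0.21 and 0.31 at 16 weeks, so its groups lay only just apart.

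**Figure D3:**
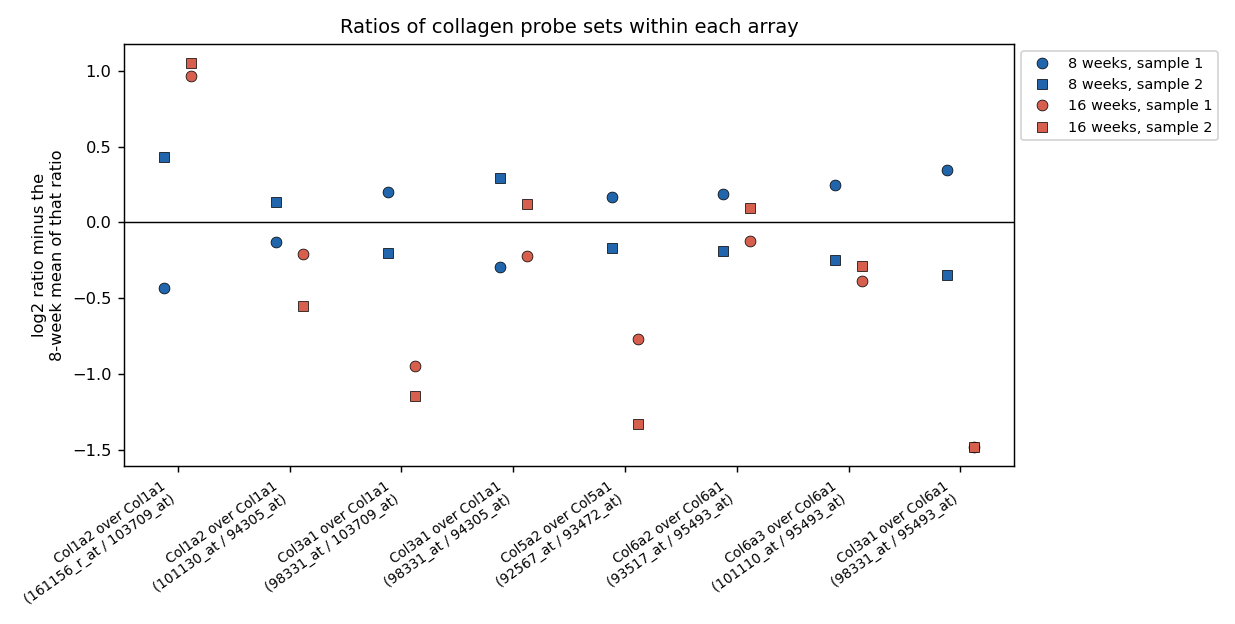
log2 ratio of collagen probe sets within each array, less the mean of the 8-week samples for that ratio, with 8-week samples in blue and 16-week samples in red. Col3a1 over Col6a1 and Col5a2 over Col5a1 sit lower at 16 weeks, Col6a2 over Col6a1 overlaps, and the ratios that involve Col1a1 or Col1a2 depend on the probe sets used.

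The scale of the arrays shifted all differences. The median difference of all tested probe sets was 0.09 on the deposited scale, 0.02 after quantile normalization, -0.11 with the arrays on a common median, and 0.46 and 0.54 with the arrays aligned on the hybridisation controls. The last value used sense-strand controls only, an alternative chosen after seeing the data. Across these 5 scales Col3a1 lay between -1.76 and -1.0, Col1a2 (101130_at) between -2.09 and -1.34, Col1a1 (94305_at) between -1.71 and -0.96 and Col5a2 between -1.39 and -0.64, lower at 16 weeks on each. Relative to the median of all tested probe sets Col3a1 was -1.62 on the deposited scale and between -1.65 and -1.22 on the other scales. Col5a2 was -1.26 and between -1.28 and -1.18 in the same way. The type VI genes changed sign: aligned on the hybridisation controls Col6a1 was 0.38 and 0.48, Col6a2 was 0.36 and 0.46 (and 0.11 after quantile normalization) and Col6a3 was 0.04 and 0.14. Relative to the median of all tested probe sets on those 2 scales, Col6a1 was -0.09 and -0.06, Col6a2 was -0.10 and -0.07, and Col6a3 was -0.42 and -0.39.

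**Figure D4:**
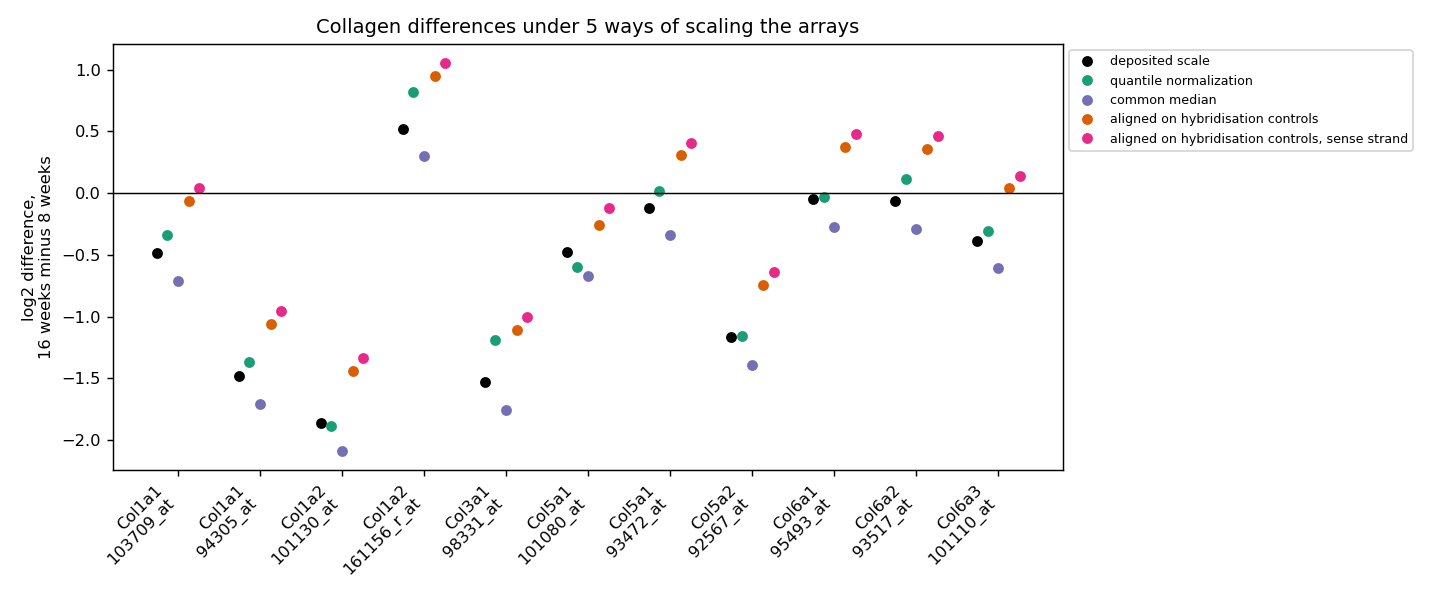
log2 difference, 16 weeks minus 8 weeks, of the 11 tested collagen probe sets on the deposited scale and under 4 other scalings of the arrays. Col1a1 (94305_at), Col1a2 (101130_at), Col3a1 and Col5a2 lie below 0 under all 5. Col1a2 (161156_r_at) lies above 0, Col5a1 (101080_at) lies below 0, and Col1a1 (103709_at), Col5a1 (93472_at) and the type VI genes lie on either side.

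Genes that make, bind or cleave collagen were taken from 6 lists of 66 symbols, of which 50 were on the array and 37 had a tested probe set. Of these 37 genes 23 were higher and 14 lower at 16 weeks, 0 passed limma's test with adjustment over all probe sets, and 5 higher and 3 lower genes had an unadjusted p under 0.05 (8.08% and 5.87% of all tested probe sets). Of these 37 genes 2, Serpinh1 and Sparc, had both 16-week values under the floor and passed the filter only through the 8-week samples, and without them 2 lower genes had such a p. Of the 3 lower genes Serpinh1 and Ppib belong to the collagen folding and secretion list, and Tnxb to the fibril-binding list. In the folding and secretion list 5 of 8 tested genes were lower and 3 higher, with a median of -0.21, which was -0.43 on a common median and 0.32 on the sense-strand controls. Serpinh1 (HSP47), the endoplasmic reticulum chaperone specific to procollagen, read 44.7 and 23.3 at 8 weeks, compared with 9.1 and 8.5 at 16 weeks. Both 16-week values were under the floor, so on the deposited scale Serpinh1 was at least 2.66-fold lower. The proline isomerase Ppib, which speeds helix folding, read 470 and 498 against 315 and 242 (-0.81 ± 0.26; limma adjusted p = 0.332), and Sec23a, of the coat of secretory vesicles, gave -0.87 ± 0.35. Aligned on the sense-strand controls Serpinh1 was -1.13, Ppib -0.28 and Sec23a -0.34. The prolyl hydroxylase subunit P4ha2 (0.01 ± 0.38) and the hydroxylase partner Crtap (0.10 ± 0.25) overlapped between the groups. A second P4ha2 probe set gave -0.57, and P4hb gave -0.19 on an _r probe set and 0.57 on another. Second probe sets of Sec23a (-0.56) and Plod3 (0.56) kept the sign. The counts of lower and higher genes in this list thus depend in part on the probe set.

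Other fibril-forming and fibril-associated collagens lay the other way. All 6 tested genes lay higher at 16 weeks (median 0.52, and 0.44 after quantile normalization), but 4 of the 6 did so on a common median (median 0.30). Col14a1, which coats the surface of mature fibrils, read 7.6 and 12.2 at 8 weeks, compared with 26.5 and 32.6 at 16 weeks. The first value was under the floor, so its difference of 1.27 ± 0.25 is a lower bound on the deposited scale (limma adjusted p = 0.301). Col12a1, of the same fibril-associated family, read 13.6 and 16.8 against 26.4 and 33.5 (0.98 ± 0.27; limma adjusted p = 0.320), but its second probe set gave -0.65. The minor fibrillar chain Col11a1 read 20.9 and 25.1 against 29.2 and 45.3 (0.67 ± 0.31). The dimmest 25% of tested probe sets had a median of 0.19, in the same direction.

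Of the enzymes that trim and cross-link fibrils, and their enhancer, none had an unadjusted p under 0.05. All 4 tested genes lay higher at 16 weeks (median 0.36), and 3 of them on a common median (median 0.16). Bmp1, the procollagen C-proteinase, read 62.4 and 101 at 8 weeks, compared with 126 and 127 at 16 weeks (0.67 ± 0.32; limma adjusted p = 0.398). Its enhancer Pcolce read 77.5 and 76.8 against 81.6 and 81.1 (0.08 ± 0.23), and the cross-linking oxidases Lox (0.21 ± 0.39) and Loxl1 (0.51 ± 0.35) overlapped between the groups.

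Fibril-binding proteins held both directions, with 5 of 9 tested genes higher and 4 lower and a median of 0.05, which was -0.09 after quantile normalization, -0.17 on a common median and 0.58 on the sense-strand controls. Decorin (Dcn), a small proteoglycan that regulates fibril spacing, read 73.3 and 68.1 at 8 weeks, compared with 114 and 111 at 16 weeks (0.68 ± 0.23; limma adjusted p = 0.340). Periostin (Postn) read 14 and 6.6 against 21.4 and 24.9, with 1 value at 8 weeks under the floor (0.82 ± 0.25; limma adjusted p = 0.326). Tenascin X (Tnxb), which links fibrils, read 56.5 and 71.4 against 35.2 and 32.9 (-0.90 ± 0.25; limma adjusted p = 0.324), and 0.13 on a second probe set. Sparc, a collagen-binding glycoprotein named after its values were seen, read 18.2 and 17.3 against 5.7 and 4.9. It was at least 1.46-fold lower on the deposited scale, and its difference was -0.26 on the sense-strand controls. Lumican (Lum), at 0.05 ± 0.26, overlapped.

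Of 4 tested collagen receptors and uptake genes 2 were higher and 2 lower (median 0.06, and -0.16 on a common median). Ddr1, the collagen receptor kinase of epithelia, read 44.2 and 18 at 8 weeks, compared with 86.1 and 73.2 at 16 weeks (1.49 ± 0.47; limma adjusted p = 0.331). Its mesenchymal relative Ddr2 gave -0.10 ± 0.35 with overlapping groups, the endocytic receptor Mrc2 gave 0.22 ± 0.77, and the integrin chain Itgb1 gave -0.62 ± 0.30 on an _r probe set and 0.34 on another. Collagen-cleaving enzymes and their inhibitors were split, with 3 of 6 higher, a median of -0.05 (0.47 on the sense-strand controls) and no unadjusted p under 0.05. The membrane collagenase Mmp14 gave 0.42 ± 0.26, the inhibitor Timp3 0.39 ± 0.40 and Timp2 -0.44 ± 0.36.

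**Figure D5:**
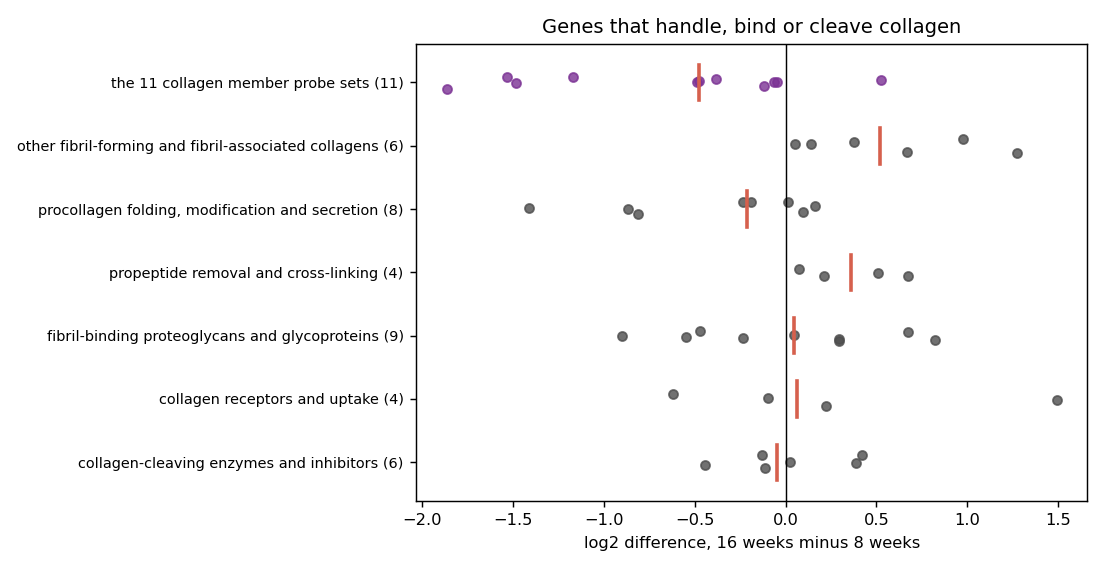
log2 difference, 16 weeks minus 8 weeks, of the 11 member probe sets and of the tested genes of 6 lists. Each point is a member probe set or, in the lists, a gene (brightest tested probe set). Each red bar is the median of its row, with the number tested in brackets. The member median is -0.48 over the 11 probe sets, but -0.25 over the 8 genes on their brightest probe sets. On brightest probe sets the folding and secretion list is at -0.21 and the other collagens at 0.52.

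Marker lists of other cell types also gave lower values at 16 weeks in part. Smooth muscle markers were lower at 16 weeks in 7 of 9 tested genes, with a median of -0.82, 5 of them with an unadjusted p under 0.05, against 5.87% of all tested probe sets and 8.98% of the brightest 25%. Their summed intensity was 3069 to 3550 at 8 weeks and 1827 to 1848 at 16 weeks. The median was -0.53 after quantile normalization and -0.29 on the sense-strand controls. Fibroblast markers had 5 of 9 tested genes lower and 4 higher, a median of -0.19 (0.34 on the sense-strand controls) and summed intensities of 816 to 906 against 609 to 673, with Thy1 under the floor on all arrays. Among them Pdgfra, the growth factor receptor of mucosal fibroblasts, gave -1.10 ± 0.30 and 0.26 on a second probe set, Dpt -0.74 ± 0.33, and the microfibril gene Mfap5 0.98 ± 0.26. Epithelial markers were lower in 3 of 5 tested genes, with summed intensities of 2501 to 3370 against 1480 to 1871 and Epcam under the floor on all arrays. Endothelial markers were split, with 4 of 7 higher and summed intensities of 187 to 204 against 201 to 209. Kdr was higher (0.79 ± 0.27) and Tie1 lower (-0.73 ± 0.24), both above the floor on all arrays. Among the other higher endothelial markers Tek read 8.7 and 10.8 at 8 weeks, both under the floor, and passed the filter only through the 16-week samples. Pecam1 had 1 value under the floor at 8 weeks, and Cdh5 had 1 in each group. Of 5 tested endocrine markers 4 were higher (median 0.51) and Chgb was lower (-0.46), with Hdc under the floor on all arrays. Of 5 macrophage and neutrophil markers 2 were higher (median -0.10), with Adgre1 and S100a9 under the floor on all arrays. Both tested red blood cell markers were lower, with a median of -0.31 that was 0.18 on the sense-strand controls. The part of these cell types in the collagen differences was not tested.

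Samples of the same stage also differed in tissue markers. Intestinal-type markers summed to 1130 in 8-week sample 1 and 206 in 8-week sample 2, against 130 to 137 at 16 weeks, with Cdx1 and Cdx2 under the floor on all arrays. Pancreatic acinar markers summed to 3498 and 779 at 8 weeks and to 2082 and 6552 at 16 weeks. 8-week sample 1 was also the highest sample for Col1a1, Col3a1 and Col1a2 (101130_at), and the values without it are given above. It was the highest for Col5a2 too, at 129 against 119 in 8-week sample 2. The part of these markers in the collagen differences was not tested.

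Genes whose profile over the 4 samples was closest to the mean profile of the 8 collagen genes were ranked by Euclidean distance between centred log2 values, among 4401 genes above the floor on all arrays. The mean collagen profile was 0.25 and 0.16 in the 8-week samples, against -0.15 and -0.26 later. The 6 nearest genes were Rexo2, Ubqln2, Ap2a2, Ube2o, Polr2c and Lemd2, at distances of 0.04 to 0.06. Rexo2 read 106 and 102 at 8 weeks, compared with 81.6 and 73.2 at 16 weeks, a difference of -0.43. With 4 samples such a match is a description only, and the mean profile is shallower than that of Col3a1, Col5a2 or Col1a2 (101130_at).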

How the data were processed

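The authors deposited 1 intensity per probe set and array on a linear scale, and none was negative. The software and any scaling between arrays are not given in the sources used here. Groups came from the labels. No genome, probe sequence or protein sequence was used. The array carries mouse probes and the RNA is from another genus, so the level of one probe set does not give a transcript's abundance relative to another, and ratios of probe sets were compared only between samples. Gene symbols came from the platform annotation, which can be old, and 396 probe sets with several symbols were not named.

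Values below the median over arrays of the 40th percentile (12.15) were set to it and log2 was taken. Probe sets other than controls above this floor on at least 2 arrays were fitted with limma 3.58.1 in R 4.3.3 (lmFit, eBayes, 2-sided moderated test, Benjamini-Hochberg adjustment over 7883 probe sets, threshold 0.05). The scripts were tested on simulated data. The number of arrays limits the precision. For each gene the tested probe set with the highest mean intensity was used. All members were named, as were up to 3 genes per list with the smallest p and the 6 genes of nearest profile; other genes were named after their values were seen. The members, lists and tests were chosen with earlier results of these data known. Alternatives covered scaling, floor, filter, variance model, replicate number and samples left out.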

Additional observations from a re-analysis of the deposited data

How the results depend on the processing

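Under 14 of 15 alternatives limma called 0 probe sets. Without a filter on dim probe sets it called 22, none of them of the 8 collagen genes, and in 17 of these a whole group lay at or under the floor. The median of the 8 collagen genes (-0.25) was -0.17 after quantile normalization, -0.475 on a common median, -0.53 on averaging each gene's probe sets and -0.44 without _f and _r probe sets. It became positive on the hybridisation controls, at 0.17, and at 0.28 on the sense-strand controls; the cause was not tested. It ranged from -0.40 to -0.21 with a sample left out, and was -0.31, -0.59, -0.46 and -0.41 without 8-week sample 1, 8-week sample 2, 16-week sample 1 and 16-week sample 2 with the _f and _r probe sets also left out. Col1a1 (94305_at), Col1a2 (both probe sets), Col3a1 and Col5a2 kept their sign under all 15 alternatives. Signs changed for Col1a1 (103709_at) at 0.041 on the sense-strand controls, for Col5a1 (93472_at) at 0.019 by quantiles, 0.31 on the hybridisation controls and 0.41 on the sense-strand controls, and for Col5a1 (101080_at) at 0.48 without 16-week sample 2 (-1.43 to 0.48 with a sample left out). They also changed for Col6a1 at 0.38, 0.48 and, without 16-week sample 2, 0.052 (-0.15 to 0.052 with a sample left out). For Col6a2 they did so at 0.36, 0.46, 0.11 by quantiles and 0.082 without 8-week sample 1 (-0.21 to 0.082 with a sample left out), and for Col6a3 at 0.0405 and 0.14. With the other type I probe sets Col1a2 over Col1a1 changed by -0.38 and Col3a1 over Col1a1 by -0.0475. With the replicate number as a block Col3a1 was -1.53 (limma adjusted p = 0.296). The labels give the numbers 1 and 2 no meaning, and the differences between samples 1 and 2 correlated at -0.05 between the groups, so the samples were not treated as pairs.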
